A study of Mus musculus with 6 samples.

Results

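A set of 10 genes of the heat shock and cold-inducible responses was followed in the retina of mice with oxygen-induced retinopathy (OIR), with or without chronic intermittent hypoxia (CIH). The 10 were taken by name from the deposited count table, which lists 32285 genes, and all 10 were measured and tested. They were 8 heat shock genes (Hspa1a, Hspa1b, Hspa8, Hsp90aa1, Hsp90ab1, Hsph1, Hspb1 and Dnajb1) and 2 genes of cold-inducible RNA-binding proteins (Rbm3 and Cirbp). Wild-type C57BL/6J pups of both groups were kept with their mothers in 75% O2 from postnatal day (PN) 8 to PN13, which obliterates the capillaries of the central retina. From PN13, OIR-CIH pups underwent daily CIH, 10 h of O2 swings between 20.95% and 5% in 266 cycles of 135 s each, while OIR-Norm pups received the same gas flow at constant O2. Retinas were dissected at PN18 and sequenced as bulk RNA, 3 libraries in each group. No retina without prior hyperoxia was sequenced, so that both groups share the OIR background. The hour of dissection relative to the last hypoxic cycle was not given in the sources used here.

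Cells answer misfolded protein with the heat shock response, in which heat shock factor 1 (HSF1) is released from chaperones, forms trimers and binds heat shock elements in the promoters of chaperone genes. Hsp70 chaperones fold clients in an ATP-driven cycle that a J-domain protein such as DNAJB1 starts and an Hsp110 such as HSPH1 resets, and Hsp90 completes the folding of kinases and receptors. Hsp70 and Hsp90 have constitutive and inducible forms, the small heat shock protein HSPB1 holds unfolded clients without ATP, and RBM3 and CIRBP are RNA-binding proteins whose transcripts rise in the cold. In the retina, photoreceptors depend on chaperones for the steady supply of outer segment proteins, and Müller glia and vessels are known sites of small heat shock proteins.

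The upstream sequences of 4 members are shown because they hold, or lack, the motifs that were searched for. Of the 10 members, 6 had promoters in the RefSeq-based table of build GRCm38.p6, with 9 start sites. Each sequence reads 5′ to 3′ on the gene's strand and ends at or before the base upstream of the start site. Capitals mark GAANNTTC, a pair of inverted heat shock element units, in the first 3 sequences, and CCAAT or its complement in that of Cirbp, which is cut short of an annotated exon. They lie at chr17:34972157-34972406 (minus strand), chr17:34959239-34959488 (minus strand), chr5:135887669-135887918 (plus strand) and chr10:80167589-80167777 (plus strand). The stretch of Cirbp precedes its first listed start site but lies inside the annotated span of the gene, which begins at 80165985.
Hspa1a: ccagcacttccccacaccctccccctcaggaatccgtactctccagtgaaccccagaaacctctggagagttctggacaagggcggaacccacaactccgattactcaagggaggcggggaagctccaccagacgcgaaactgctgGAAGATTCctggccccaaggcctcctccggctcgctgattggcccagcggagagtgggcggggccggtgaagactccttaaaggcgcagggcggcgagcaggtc
Hspa1b: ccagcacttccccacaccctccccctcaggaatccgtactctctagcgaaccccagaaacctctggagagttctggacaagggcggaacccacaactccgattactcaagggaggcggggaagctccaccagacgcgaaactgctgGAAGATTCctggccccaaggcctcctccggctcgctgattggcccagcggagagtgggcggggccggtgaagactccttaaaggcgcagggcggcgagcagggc
Hspb1: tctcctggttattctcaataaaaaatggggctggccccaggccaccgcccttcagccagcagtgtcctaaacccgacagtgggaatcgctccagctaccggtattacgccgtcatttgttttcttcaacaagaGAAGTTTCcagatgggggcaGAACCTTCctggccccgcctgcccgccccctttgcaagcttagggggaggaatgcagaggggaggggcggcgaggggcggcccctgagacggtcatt
Cirbp: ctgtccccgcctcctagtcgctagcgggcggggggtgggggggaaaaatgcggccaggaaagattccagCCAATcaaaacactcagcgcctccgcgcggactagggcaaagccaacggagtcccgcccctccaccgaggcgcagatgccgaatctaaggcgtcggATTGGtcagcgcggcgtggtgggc

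Hspa1a and Hspa1b carried GAANNTTC at the same place, its first base at -104 from the start site. Their 250 upstream bases differed at 3 positions and were 98.8% identical. The Hspb1 promoter held the motif at -117 and at -97. At Hsph1 a single match lay downstream of both listed start sites, at 21 from the first and 42 from the second, and a further alternating unit adjoined it. No GAANNTTC was found in the windows of Dnajb1 and Cirbp, from 250 bases before to 50 after the start site. For comparison, 7.86% of 32851 promoters in the table held GAANNTTC on either strand, and 0.603% held it with the further unit. CCAAT stood at -67 in Hspa1a and Hspa1b and at -181 and -85 from the first listed start site of Cirbp. It also stood at -137 and -68 from the first start site of Hsph1 and at -151 and 12 from the first of Dnajb1, and was not found in the window of Hspb1. CCAAT occurred in 37.4% of all promoters. TATAAA was found in no member's window, against 13.6% of all promoters. The motifs were searched on both strands, and a match is a description of the letters only.

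The libraries held between 26289905 and 38010151 counts each. Levels are given as CPM, a gene's share of all counts of its library brought to a common total with edgeR's TMM factors, and differences are log2 fold changes of OIR-CIH over OIR-Norm from edgeR's quasi-likelihood test. A gene was called at a Benjamini-Hochberg adjusted p under 0.05 over 20021 tested genes together with an absolute log2 fold change over 0.5. Every library held Xist as well as Y-linked transcripts, so that the number of animals behind a library is not known and the error covers the spread between libraries. Retinal identity was clear from rod photoreceptor markers, which summed to between 44055 and 51404 CPM in OIR-CIH and between 39508 and 51802 CPM in OIR-Norm. Lens markers summed to 457 CPM in OIR-Norm 2 and to between 16.6 and 73.9 CPM in the other 5 libraries, so that OIR-Norm 2 stood apart in this respect. The same library had the lowest rod sum. Pigment epithelium markers summed to 310 CPM in OIR-CIH 1 and to between 132 and 231 CPM in the other libraries. The part of such differences in the members' values was not tested. Genes listed as reactive glia markers were lower in OIR-CIH, with sums of 86.4 to 93.3 CPM against 178 to 221 CPM. Of these, 4 of 5 were called (Edn2, Gfap, Serpina3n and Timp1), beside 0.21% of all genes called lower. The cells that made these RNAs, Edn2 among them, were not identified. In bulk retina, fewer cells of a type and less RNA per cell cannot be told apart.

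None of the 10 members was called different between OIR-CIH and OIR-Norm retinas (0 of 10, beside 0.315% of all tested genes). The estimates were small and mostly positive, with 9 above 0 and 1 below, and a median log2 fold change of 0.09 beside -0.01 over all genes. The largest positive estimate was 0.24 (Hspa1b), and adjusted p from edgeR ran from 0.368 to 0.942. At an unadjusted p under 0.05, edgeR gave 1 member (Hspa8), beside 13.4% of all genes, DESeq2 gave 2 (Hspa8 and Cirbp) and limma gave 0. This count moved with single libraries, to 4 (Hspa1a, Hspa1b, Hspa8 and Cirbp) without OIR-Norm 1 and 2 (Hspa8 and Cirbp) without OIR-CIH 2. It was 0 without any one of OIR-CIH 1, OIR-CIH 3, OIR-Norm 2 and OIR-Norm 3. The share over all genes was taken for the main edgeR fit only. Counts from the other fits thus have no such share beside them and are not read as a result about the members. For 8 members the 95% interval of the log2 fold change lay within 0.5 in either direction, and for the other 2, Hspa1b and Hspb1, it reached beyond. The library labelled OIR-CIH 1 was the highest for 6 members, and OIR-Norm 2 was the lowest for 5.

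**Figure D1:**
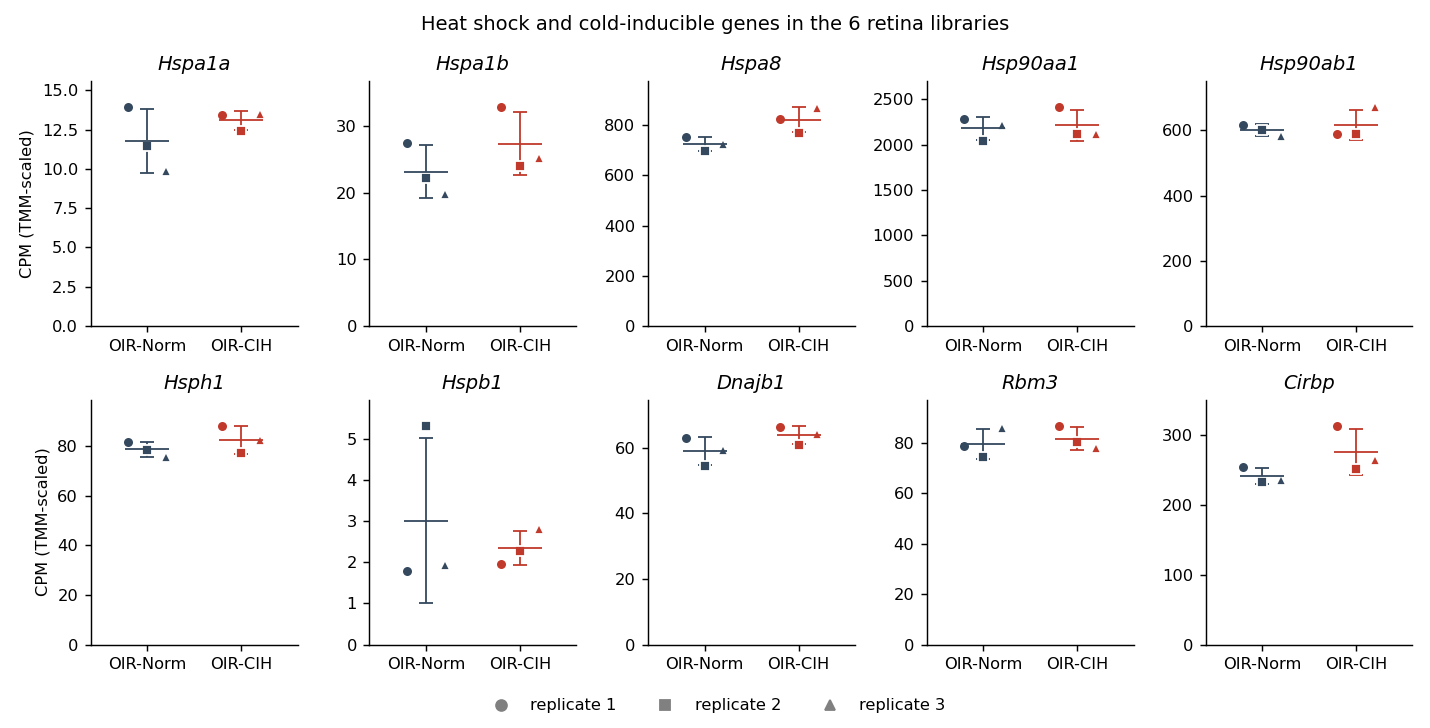
Level of each of the 10 genes (CPM, TMM-scaled, axis from 0) in the 3 OIR-Norm and 3 OIR-CIH libraries, with the mean (bar) and SD (whiskers). The groups overlap for 9 genes, Hspa8 is the gene whose OIR-CIH libraries all lie above the OIR-Norm libraries, and 1 OIR-Norm library stands far above the rest for Hspb1.

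Hspa8, the constitutive Hsp70 that also strips clathrin from vesicles, lies at chr9:40800984-40810087 (plus strand). It measured 823, 770 and 870 CPM in OIR-CIH 1 to 3 and 752, 699 and 725 CPM in OIR-Norm 1 to 3. All OIR-CIH libraries were above all OIR-Norm libraries, which also held for 9.12% of all genes. Hspa8 was the 1 member of 10 whose groups did not overlap, beside 18.4% of all genes in either direction. The means were 821 ± 49.97 and 725 ± 26.5 CPM (SD, n = 3 each), a 1.13-fold difference. The log2 fold change was 0.18 (SE 0.08, 95% interval 0.0022 to 0.36), with an adjusted p of 0.368 from edgeR, so that it was not called. The exact two-sided permutation test over libraries gave p = 0.1, the smallest that 3 against 3 can give.

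The inducible Hsp70 genes Hspa1a and Hspa1b, which are neighbours on chromosome 17 (chr17:34969190-34972156 and chr17:34956436-34959238, both minus strand), were far lower. Hspa1a measured 13.4, 12.4 and 13.5 CPM in OIR-CIH and 13.9, 11.5 and 9.86 CPM in OIR-Norm. The highest library was OIR-Norm 1 and the lowest OIR-Norm 3, so that OIR-CIH lay inside the range of OIR-Norm. For Hspa1a the log2 fold change was 0.16 (SE 0.13, 95% interval -0.12 to 0.44, adjusted p = 0.626 from edgeR). Hspa1b measured 32.8, 24.1 and 25.2 CPM in OIR-CIH and 27.5, 22.2 and 19.8 CPM in OIR-Norm. OIR-CIH 1 was above every other library, while OIR-CIH 2 and 3 were below OIR-Norm 1. For Hspa1b it was 0.24 (SE 0.14, 95% interval -0.06 to 0.54, adjusted p = 0.484 from edgeR), and without OIR-CIH 1 it came to 0.09.

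Both genes encode nearly the same protein, and 47.1% of the 100-base stretches of the Hspa1a transcript also occur in that of Hspa1b. The counts are of uniquely aligned reads, so that each level rests on the part of the transcript that differs and is uncertain. Hspa1a took 29.0% of the counts of the pair in OIR-CIH 1 (95% Wilson interval 26.5 to 31.7), 34.0% in OIR-CIH 2 and 34.9% in OIR-CIH 3. In OIR-Norm 1 to 3 its share was 33.6%, 34.1% and 33.3%. The low share of OIR-CIH 1 goes with its high Hspa1b level, and the means of 32.6 ± 3.17% and 33.7 ± 0.421% (SD, n = 3 each) did not separate the groups (exact permutation test, p = 0.9). The intervals cover counting error only.

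Hsp90aa1, the stress-inducible cytosolic Hsp90 (chr12:110690605-110702728, minus strand), was the most abundant member. It measured 2412, 2112 and 2117 CPM in OIR-CIH and 2287, 2038 and 2212 CPM in OIR-Norm. The libraries of the groups interleaved. With a log2 fold change of 0.02 (SE 0.10, 95% interval -0.19 to 0.24, adjusted p = 0.942 from edgeR), Hsp90aa1 had the estimate nearest to 0 among the members, which turned to -0.05 without OIR-CIH 1 and to -0.02 without OIR-Norm 2. Its constitutive counterpart Hsp90ab1 (chr17:45567775-45573271, minus strand) measured 589, 589 and 671 CPM in OIR-CIH and 618, 602 and 583 CPM in OIR-Norm. OIR-CIH 3 was the high library, and the other 2 OIR-CIH libraries lay within the range of OIR-Norm. Its log2 fold change was 0.04 (SE 0.08, 95% interval -0.14 to 0.21, adjusted p = 0.878 from edgeR), and -0.03 without OIR-CIH 3. Hsp90aa1 made up 80.4%, 78.2% and 75.9% of the counts of the Hsp90 pair in OIR-CIH and 78.7%, 77.2% and 79.1% in OIR-Norm, and the shares did not separate the groups (exact permutation test, p = 0.9). Of the 100-base stretches of Hsp90aa1, 38.0% occur in other genes, chiefly Gm12346, and of those of Hspa8, 28.5%, chiefly Gm15459, so that uniquely aligned reads count only part of both transcripts.

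The partners of the Hsp70 cycle moved little. Hsph1, the Hsp110 that exchanges the nucleotide of Hsp70 (chr5:149614287-149636376, minus strand), measured 88.1, 77.0 and 82.2 CPM in OIR-CIH and 81.8, 78.3 and 75.6 CPM in OIR-Norm. OIR-CIH 1 was highest and OIR-Norm 3 lowest, with the rest mixed. For Hsph1 the log2 fold change was 0.07 (SE 0.08, 95% interval -0.10 to 0.24, adjusted p = 0.735 from edgeR). Dnajb1, the J-domain cochaperone that starts the cycle (chr8:83608193-83612653, plus strand), measured 66.4, 60.7 and 64.2 CPM in OIR-CIH and 63.0, 54.4 and 59.4 CPM in OIR-Norm. OIR-CIH 1 and 3 were above all OIR-Norm libraries and OIR-CIH 2 was below OIR-Norm 1. For Dnajb1 it was 0.11 (SE 0.08, 95% interval -0.06 to 0.29, adjusted p = 0.57 from edgeR). Neither gene shared a 100-base stretch with another gene.

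**Figure D2:**
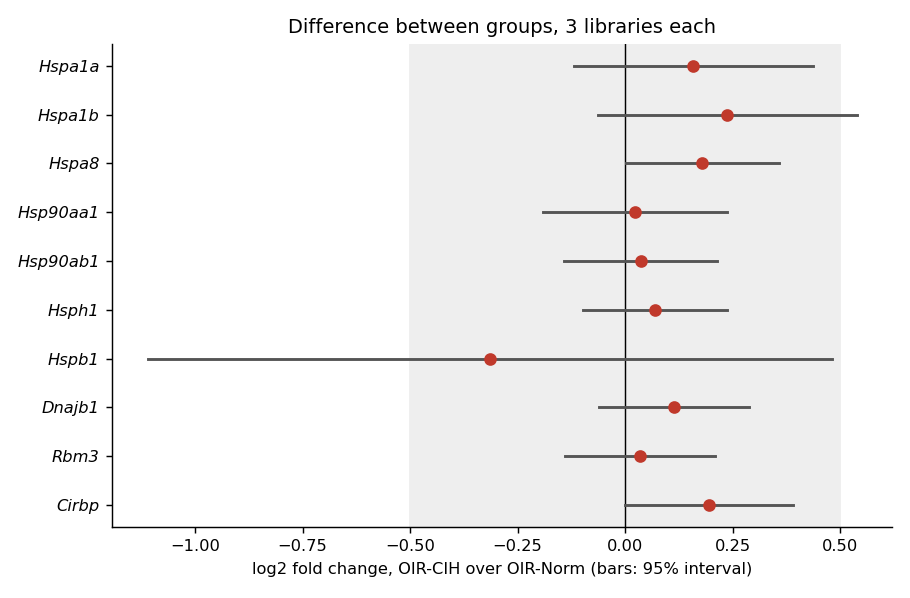
Log2 fold change of OIR-CIH over OIR-Norm (points) with its 95% interval (bars) for the 10 genes, with the range from -0.5 to 0.5 shaded. Hspa8 is the gene whose interval excludes 0, and the interval of Hspb1, from -1.11 to 0.48, is the widest.

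Hspb1, the small heat shock protein also called Hsp25 in the mouse (chr5:135887919-135889563, plus strand), was the lowest member and the one with the widest spread. It measured 1.96, 2.29 and 2.80 CPM in OIR-CIH and 1.78, 5.33 and 1.95 CPM in OIR-Norm, from 50 to 152 counts a library. OIR-Norm 2 was far above the other libraries, and OIR-Norm 1 and 3 were the lowest of the 6. The log2 fold change was -0.31 (SE 0.37, 95% interval -1.11 to 0.48, adjusted p = 0.749 from edgeR), and without OIR-Norm 2 it turned to 0.36 (adjusted p = 0.683). With Y-linked RNA as a covariate it was -0.71 (adjusted p = 0.3 from edgeR), and Hspb1 was then the 1 member with an unadjusted p under 0.05. Y-linked RNA summed to 57.3, 111 and 110 CPM in OIR-CIH and 172, 69.7 and 184 CPM in OIR-Norm 1 to 3. This covariate thus ran partly with the groups, and OIR-Norm 2 was the low library of OIR-Norm. Of the 100-base stretches of Hspb1, 44.0% occur in the pseudogene Hsp25-ps1.

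The gene whose pattern was most like that of Hspb1 was Cryab, another small heat shock protein, at 101 CPM in OIR-Norm 2 and 37.4 to 49.1 CPM elsewhere. Likeness was the root mean square difference of log2(CPM + 0.5), centred on each gene's mean, over the 6 libraries, among 12058 genes with a mean of at least 5 CPM. The difference was 0.195 for Cryab, and the next were Itga5 (0.201), Pecam1 (0.202), Col4a2 (0.203) and Anxa3 (0.205), where Hspb1 itself varied by 0.460 about its mean. Pecam1, an endothelial adhesion molecule, measured 24.4 CPM in OIR-Norm 2 and 8.32 to 12.5 CPM in the other libraries, and Col4a2, a basement membrane collagen, 153 CPM and 55.0 to 85.4 CPM. The same library was also the highest for the lens, endothelial and pericyte lists, among others. Lens markers, with 0 of 5 called and none at 0 in all libraries, summed to 16.6 to 73.9 CPM in OIR-CIH and 19.9 to 457 CPM in OIR-Norm. Endothelial markers, with 0 of 5 called and none at 0, summed to 195 to 223 CPM and 195 to 246 CPM. Pericyte and smooth muscle markers, with 0 of 5 called and none at 0, summed to 82.1 to 127 CPM and 90.8 to 214 CPM. Their part in the Hspb1 level of this library was not tested.

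**Figure D3:**
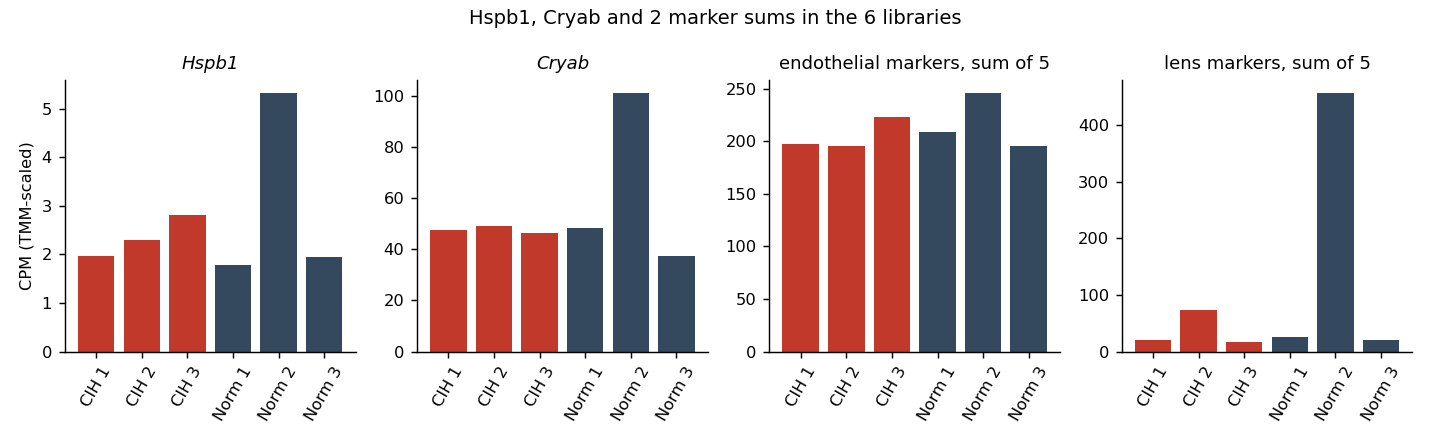
Hspb1, Cryab and the summed endothelial and lens markers (5 genes each) in CPM, TMM-scaled, in each of the 6 libraries (red, OIR-CIH and dark, OIR-Norm; bars start at 0). OIR-Norm 2 is the highest library in all 4 panels, at 5.33 CPM for Hspb1 and 457 CPM for the lens sum.

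The cold-inducible genes differed from each other in level and in spread. Cirbp (chr10:80165985-80172786, plus strand), whose product binds RNA and moves to the cytoplasm under stress, measured 313, 251 and 264 CPM in OIR-CIH and 254, 233 and 236 CPM in OIR-Norm. OIR-CIH 1 was the high library, and the groups overlapped only through OIR-CIH 2 and OIR-Norm 1. The means were 276 ± 32.7 and 241 ± 11.2 CPM (SD, n = 3 each), and the exact permutation test gave p = 0.2. The log2 fold change was 0.20 (SE 0.09, 95% interval -0.0005 to 0.39, adjusted p = 0.373 from edgeR), and without OIR-CIH 1 it was 0.09. The genes most like Cirbp were Wdr70 (root mean square difference 0.0277), Fkbp2 (0.0302), Nsmce1 (0.0303), Fam107b (0.0339) and Sntb1 (0.0369), beside its own variation of 0.140. Rbm3 (chrX:8138975-8145880, minus strand), whose product is known to protect synapses in cooled brain, measured 86.9, 80.3 and 78.2 CPM in OIR-CIH and 79.0, 74.3 and 86.1 CPM in OIR-Norm. OIR-CIH 1 and OIR-Norm 3 were nearly level at the top. Its log2 fold change was 0.04 (SE 0.08, 95% interval -0.14 to 0.21, adjusted p = 0.881 from edgeR), and -0.01 without either OIR-CIH 1 or OIR-Norm 2. Of the 100-base stretches of Rbm3, 5.36% occur in other genes, and of Cirbp none.

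The difference between the group means was larger than the SD of both groups for 3 of the 10 members, Hspa8, Dnajb1 and Cirbp. Genes listed as reactive glia markers moved with the groups while these members did not pass the test. The part of those genes in the members' values was not tested. Amacrine and horizontal cell markers summed to 459 to 576 CPM in OIR-CIH and 426 to 452 CPM in OIR-Norm, with 0 of 5 called. Among 8 immediate-early genes, which mark recent stimulation of cells, 1 was called, beside 0.315% of all genes. It was Nr4a1, lower in OIR-CIH (44.4 ± 2.0 against 67.1 ± 10.0 CPM, SD, n = 3 each). Of the 8 estimates 7 were below 0 and 1 above, Jun at a log2 fold change of 0.26. The list sums overlapped, at 266 to 296 CPM in OIR-CIH and 265 to 386 CPM in OIR-Norm.

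Per kilobase of exon, the members spanned more than 2 orders of magnitude in level. In OIR-Norm the order was Hsp90aa1 (644 CPM per kb), Hspa8 (303), Hsp90ab1 (238), Cirbp (182), Rbm3 (22.3), Hsph1 (18.6), Dnajb1 (18.4), Hspa1b (8.26), Hspa1a (3.96) and Hspb1 (2.93). The library ranges of Hsph1 and Dnajb1 overlapped, as did those of Hspa1a and Hspb1, and the other neighbours did not overlap. In OIR-CIH the levels per kb ran from 655 for Hsp90aa1 to 2.28 for Hspb1 in the same order, except that Dnajb1 (19.9) and Hsph1 (19.5) changed places with overlapping ranges. In that group Hsp90ab1 (245) and Cirbp (209) also overlapped, and Hspa1a (4.42) lay clear of Hspb1. The constitutive and inducible Hsp70 genes were thus far apart in both groups, while the stress-inducible Hsp90aa1 stood above the constitutive Hsp90ab1. These levels divide uniquely aligned reads by the exon length in the basic set of GENCODE M21. Reads can also come from exons of transcripts outside that set. For Cirbp this length was 1321 bases, against 2793 distinct 100-base stretches over all its transcripts, and for Hspa8 2394 against 5110. Stretches across exon joins add to the latter figures, and the exon length outside the set was not measured. Other genes hold 56.5% of the 100-base stretches of Hspa1a, 49.9% of Hspa1b, 44.0% of Hspb1, 38.0% of Hsp90aa1 and 28.5% of Hspa8. For Hsp90ab1, Hsph1, Dnajb1 and Cirbp none are shared. The order of genes close in level is therefore uncertain.

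**Figure D4:**
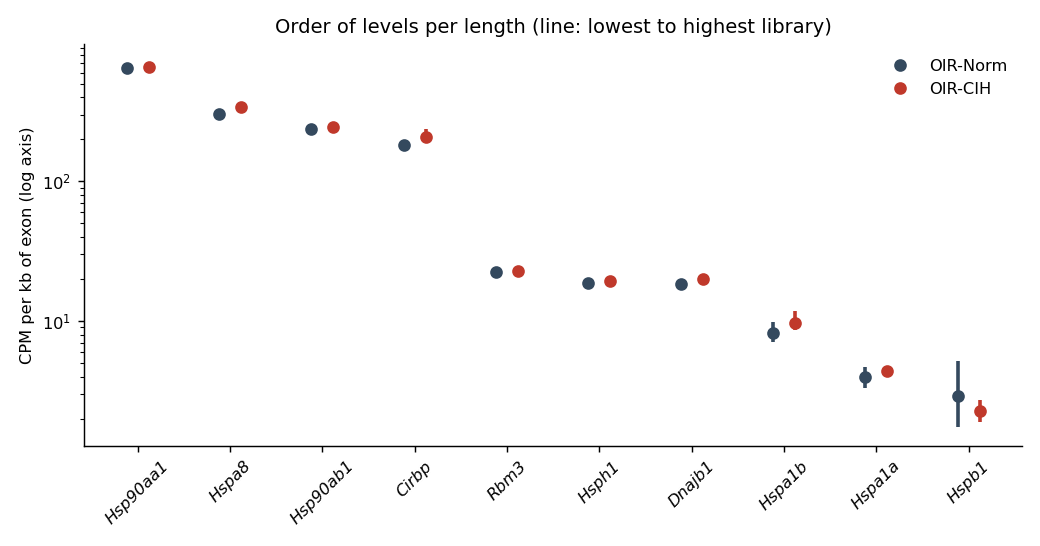
Level per kilobase of exon (CPM per kb, log axis) of the 10 genes in OIR-Norm (dark) and OIR-CIH (red), as the mean of 3 libraries (points) with the lowest and highest library (lines). The order runs from Hsp90aa1 (644 in OIR-Norm) to Hspb1 (2.93), with the groups close together at every gene.

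The wider chaperone network was covered by 65 further genes in 7 lists, and 0 of 65 were called in either direction (38 estimates above 0 and 27 below, median 0.04, beside 0.105% of all genes called higher and 0.21% called lower). At an unadjusted p under 0.05 there were 5 of 65, beside 13.4% of all genes. The libraries of the groups did not overlap for 7 genes that were higher and 4 that were lower in OIR-CIH, beside 9.12% and 9.26% of all genes. Bag3, the exchange factor that routes Hsp70 clients to autophagy, had the lowest adjusted p. It measured 9.65, 6.59 and 9.29 CPM in OIR-CIH and 12.7, 17.0 and 9.77 CPM in OIR-Norm. All 3 OIR-CIH libraries were below OIR-Norm, the gap to OIR-Norm 3 being narrow. Its log2 fold change was -0.62 (SE 0.19, 95% interval -1.04 to -0.20, adjusted p = 0.247 from edgeR), so that it was not called. Without OIR-Norm 2, its highest library, Bag3 was at -0.40 (adjusted p = 0.537), and without OIR-Norm 3 at -0.80. With Y-linked RNA as a covariate, which ran partly with the groups, it was at -0.89 and was called (adjusted p = 0.0348 from edgeR). In the main edgeR fit, Bag2 (0.33, adjusted p = 0.275) and the ubiquitin ligase Stub1 (0.23, adjusted p = 0.313) had log2 fold changes above 0. The groups did not overlap for either gene.

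In the Hsp70 and Hsp110 family, 2 of 8 estimates were above 0 and 6 below, with Hspa4l at -0.21 (adjusted p = 0.296 from edgeR), Hspa13 at -0.09 and Hspa4 at -0.08. Of 11 J-domain cochaperones 8 were above 0, with Dnajc2 at -0.18, Dnajb5 at 0.15 and Dnajb6 at 0.12. Of 12 Hsp90 cochaperones 8 were above 0, with Fkbp4 at 0.13, Ppp5c at 0.12 and Unc45a at 0.08. These values are log2 fold changes, and none passed the test. Among 8 small heat shock proteins 3 were above 0, and the range was the widest of the lists, from -2.13 to 0.76. Its lowest estimate was that of Cryaa (-2.13, adjusted p = 0.373 from edgeR), a lens crystallin at 173 CPM in OIR-Norm 2 and 4.39 to 30.0 CPM elsewhere, which without OIR-Norm 2 was at 0.77. Cryab was at -0.39 (adjusted p = 0.557) and, without that library, at 0.15, and Hspb8 was at -0.17. Among 12 mitochondrial and endoplasmic reticulum chaperones 8 were above 0, with Hspe1 at 0.16, Hspa5 at 0.16 and Hsp90b1 at 0.15. Of the 6 heat shock factors and their regulators 3 were above 0. Hsbp1, which binds the HSF1 trimer, was at 0.19 (adjusted p = 0.353 from edgeR), Hsf2 was at 0.10, and Hsf3, which held at most 0.389 CPM in a library, was at -0.79 and turned to 1.28 without OIR-Norm 1.

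**Figure D5:**
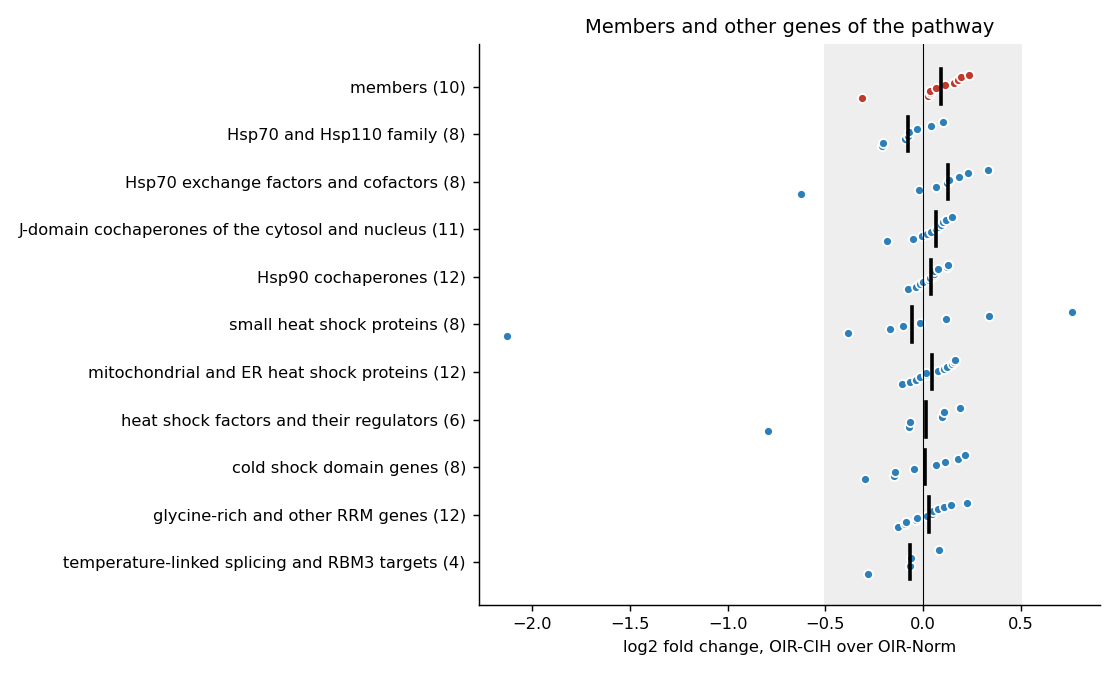
Log2 fold change of OIR-CIH over OIR-Norm for the 10 members (red) and each gene of 10 lists (blue, number of genes in brackets), with the median of each list (black bar) and the range from -0.5 to 0.5 shaded. Medians lie close to 0, 0.09 for the members and 0.04 over the 65 chaperone genes, and none of the genes shown was called.

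The relatives of Rbm3 and Cirbp gave a like picture, with 0 of 24 called, beside 0.315% of all genes. There were 12 estimates above 0 and 12 below, and the median was -0.01. At an unadjusted p under 0.05 there were 3 of 24, beside 13.4% of all genes. The libraries of the groups did not overlap for 0 genes that were higher and 1 that was lower in OIR-CIH, beside 9.12% and 9.26%. In the cold shock domain genes, which encode another class of cold-linked RNA-binding proteins, 4 of 8 were above 0. Carhsp1 measured 22.4, 22.6 and 23.2 CPM in OIR-CIH and 29.5, 30.4 and 23.9 CPM in OIR-Norm. OIR-CIH was below OIR-Norm throughout, and its log2 fold change was -0.30 (SE 0.10, adjusted p = 0.275 from edgeR). Ybx1 was at 0.22 and Ybx3 at 0.18. Of 12 glycine-rich and other RRM genes 7 were above 0, with Hnrnpa0 at 0.23 (adjusted p = 0.363 from edgeR), Hnrnpab at 0.14 and Rbmxl1 at -0.13. Of 4 genes linked to temperature-dependent splicing or to RBM3 1 was above 0. Clk1, the temperature-sensing splicing kinase, was at -0.28 (adjusted p = 0.308 from edgeR). Without OIR-Norm 1 it was at -0.42 with an adjusted p of 0.0398 from edgeR, under the minimum fold for a call, and without OIR-Norm 2 at -0.20. Rtn3, a known RBM3 target, was at 0.08 and Srsf10 at -0.07.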

How the data were processed

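By the paper's account, RNA from the retinas of 6 eyes at PN18, 3 OIR-CIH and 3 OIR-Norm, was made into stranded mRNA libraries from 250 ng of total RNA. The Xist and Y-linked RNA found together in each library are in conflict with 1 eye a library. The authors aligned reads with STAR 2.7.9a and deposited raw gene counts in 1 table, not normalized. The labels name GRCm38 and the methods a later Ensembl release, which is on another build, and which strand column was kept was not given in the sources used here. Counts were tested with edgeR 4.0.16 in R 4.3.3 (quasi-likelihood, TMM) on the 20021 genes whose counts summed to 10 or more. Symbols (32158 of 32285 identifiers), positions and exon lengths came from GENCODE M21 (GRCm38), the exon lengths from its basic set of transcripts. Alternatives were DESeq2 1.42.0, limma 3.58.1 on log2(CPM + 0.5), median-of-ratios scaling, the legacy quasi-likelihood fit, other count filters, no minimum fold, a replicate block, Y-linked RNA as a covariate and leaving out each library. No pair of replicates agreed within sampling noise.

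The members and lists were chosen with earlier results of these data known. Named were all members, the called genes and the 3 of lowest p of each list, and the 5 genes most like Hspb1 and Cirbp. With 3 libraries a group, the exact permutation test cannot go below 0.1.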

Additional observations from a re-analysis of the deposited data

How the results depend on the processing

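No member was called in any of 140 refits (14 settings for each of 10 members), and 6 changed sign, all on leaving out 1 library. Hsp90aa1 turned to a log2 fold change of -0.046 without OIR-CIH 1 and -0.024 without OIR-Norm 2, Hsp90ab1 to -0.032 without OIR-CIH 3, Rbm3 to -0.013 without OIR-CIH 1 and -0.014 without OIR-Norm 2, and Hspb1 to 0.36 without OIR-Norm 2. Leaving out each library gave 0.04 to 0.30 for Hspa1a, 0.09 to 0.38 for Hspa1b, 0.13 to 0.22 for Hspa8, -0.046 to 0.055 for Hsp90aa1, -0.032 to 0.068 for Hsp90ab1, 0.02 to 0.11 for Hsph1, -0.59 to 0.36 for Hspb1, 0.06 to 0.16 for Dnajb1, -0.014 to 0.092 for Rbm3 and 0.09 to 0.26 for Cirbp. Leaving out each library gave -3.24 to 0.77 for Cryaa, -0.65 to 0.15 for Cryab and -1.32 to 1.28 for Hsf3, with the values above 0 coming without OIR-Norm 2 (Cryaa, Cryab) or OIR-Norm 1 (Hsf3). Over all genes, 63 were called, 135 with DESeq2 and 29 (without OIR-CIH 1) to 97 (without OIR-Norm 3) on leaving out a library. With Y-linked RNA as a covariate 1 of 65 chaperone genes was called, Bag3, and otherwise 0, as for the 24 RNA-binding relatives. The cause of these moves was not tested.

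Whether the replicate numbers pair the libraries was not settled. Deviations of same-numbered libraries from their group means correlated at 0.162, 0.143 and -0.238 over 14800 genes. Differently numbered libraries were not compared, so that these values cannot decide it. A fit that took the replicate number as a block called 68 genes, sharing 48 with the 63, and 0 members. In it, 3 members (Hspa1b, Hspa8 and Cirbp) had an unadjusted p under 0.05, and the share over all genes was not taken.

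With 3 libraries a group, differences of the size estimated for most members could not be told from 0. Hspb1, with 50 to 152 counts a library, was the least precise. Levels of Hspa1a, Hspa1b and Hspb1 rest on the parts of their transcripts that do not occur in another gene.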
